A study of Mus musculus with 6 samples.

Results

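The genes of fat absorption and chylomicron assembly were followed in the duodenal villus epithelium of double mutant and wild-type mice. The set holds 10 genes, Apoa1, Apoa4, Apob, Apoc3, Mttp, Fabp1, Fabp2, Cd36, Dgat2 and Mogat2, chosen by name, and each has 1 row among the 20409 features of the count table. All 10 passed the filter on low counts that kept 13346 genes for testing. Polyadenylated RNA was sequenced as 1 library per mouse from 3 double mutant and 3 wild-type mice, and in each group mouse 1 was male and mice 2 and 3 were female. The double mutant mice carried Smad4 fl/fl and Ctnnb exon3 fl/wt with Villin-CreERT2, a Cre that tamoxifen activates throughout the intestinal epithelium, on a C57BL6-enriched background. They received tamoxifen intraperitoneally at 0.05 g/kg on 4 consecutive days, and villi were taken 7 days after induction. Wild-type mice were littermates that received no injection, so mutation and tamoxifen cannot be told apart in this comparison. The alleles of these littermates and the age of the mice are not given in the sources used here. All mice ate standard chow, and tissue was collected around midday.

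Dietary fat reaches the enterocyte as fatty acids and monoacylglycerol. The cell takes these up, binds them to carrier proteins, rebuilds them into triglyceride at the endoplasmic reticulum and loads the triglyceride onto apolipoprotein B to form chylomicrons, which leave through the Golgi into the lymph. Absorptive enterocytes of the proximal intestine are the main site of this pathway, and the liver shares much of it. CD36 is a fatty acid receptor and transporter of the apical membrane, FABP1 and FABP2 are the abundant cytosolic fatty acid carriers, MOGAT2 and DGAT2 add acyl chains to monoacylglycerol and diacylglycerol, MTTP moves lipid onto apolipoprotein B, and APOA1, APOA4 and APOC3 ride on the particle surface.

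Library totals ran from 19678507 to 26337318 counts, at which 3 counts correspond to 0.114 to 0.152 CPM, counts relative to the library total, and these floors cover counting error only. Smad4 averaged 148 ± 30.3 CPM in wild-type and 31.6 ± 5.40 CPM in mutant mice (SD, n = 3 each), a log2 difference of -2.22 in edgeR's quasi-likelihood test (adjusted p = 0.000145), so the labelled genotypes matched the targeted gene. Ctnnb1, whose allele loses 1 exon, averaged 931 ± 53.5 and 840 ± 79.6 CPM, and gene-level counts cannot show that loss. The enterocyte markers Vil1 and Krt20 were at 1243 CPM or more in every library, and the lowest of the 12 enterocyte markers in any library was Slc2a5, at 205 CPM in double mutant mouse 1. The library of wild-type mouse 1 stood apart from the other 5. The 8 goblet cell markers summed to 123 CPM in wild-type mouse 1 and to 11538 and 10901 CPM in wild-type mice 2 and 3. In double mutant mice their sum was 4468 to 4918 CPM. The 7 Paneth cell markers summed to 8.28 CPM in wild-type mouse 1 and to 978 and 1620 CPM in wild-type mice 2 and 3. In double mutant mice their sum was 155 to 255 CPM. Markers of stroma and vessel summed to 3.50 to 7.07 CPM in wild-type and 7.11 to 11.5 CPM in double mutant villi, with Col1a2, Col3a1 and Pdgfra at 0 in all wild-type mice. Liver markers summed to 1.79 to 2.13 CPM in each library but double mutant mouse 2, where the sum was 14.3 CPM. Markers of exocrine pancreas summed to 6.01 to 10.5 CPM, nearly all of it Cela1, and Plin1, the 1 adipocyte marker with a row, never passed 0.139 CPM. Levels in the text are CPM scaled by TMM factors, unless a level per length is named.

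Of the 10 genes, 5 were lower in double mutant villi, 1 was higher and 4 were not called, at an adjusted p under 0.05 over all tested genes. Among all genes, 17.0% were called lower and 19.7% higher. Apoc3 fell most, followed by Apoa4 and Cd36, and these 3 kept their call under each of the 16 alternative fits. Apoa1 and Mttp fell by less, Fabp1 rose, and Apob, Dgat2, Fabp2 and Mogat2 did not pass. The median log2 fold change of the 10 genes was -0.38, against 0.02 over all tested genes and -1.20 over 12 enterocyte markers outside the set. Of those 12 markers, 11 fell, and their summed level was 37758 to 47494 CPM in wild-type and 17983 to 20546 CPM in double mutant villi. Of 7 villus tip markers tested, 6 fell, and of 12 stem and transit-amplifying markers 8 rose. Enteroendocrine markers fell in 6 of 8 tested and tuft cell markers in 7 of 7. Of 8 goblet cell markers none fell and 1 rose, and no Paneth cell marker was called. Without wild-type mouse 1, 5 goblet and 3 Paneth markers fell and 1 of each rose, beside 17.1% and 20.2% of all genes. In bulk RNA, fewer enterocytes and less RNA per enterocyte cannot be told apart, and the part of either in the results below was not tested.

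**Figure D1:**
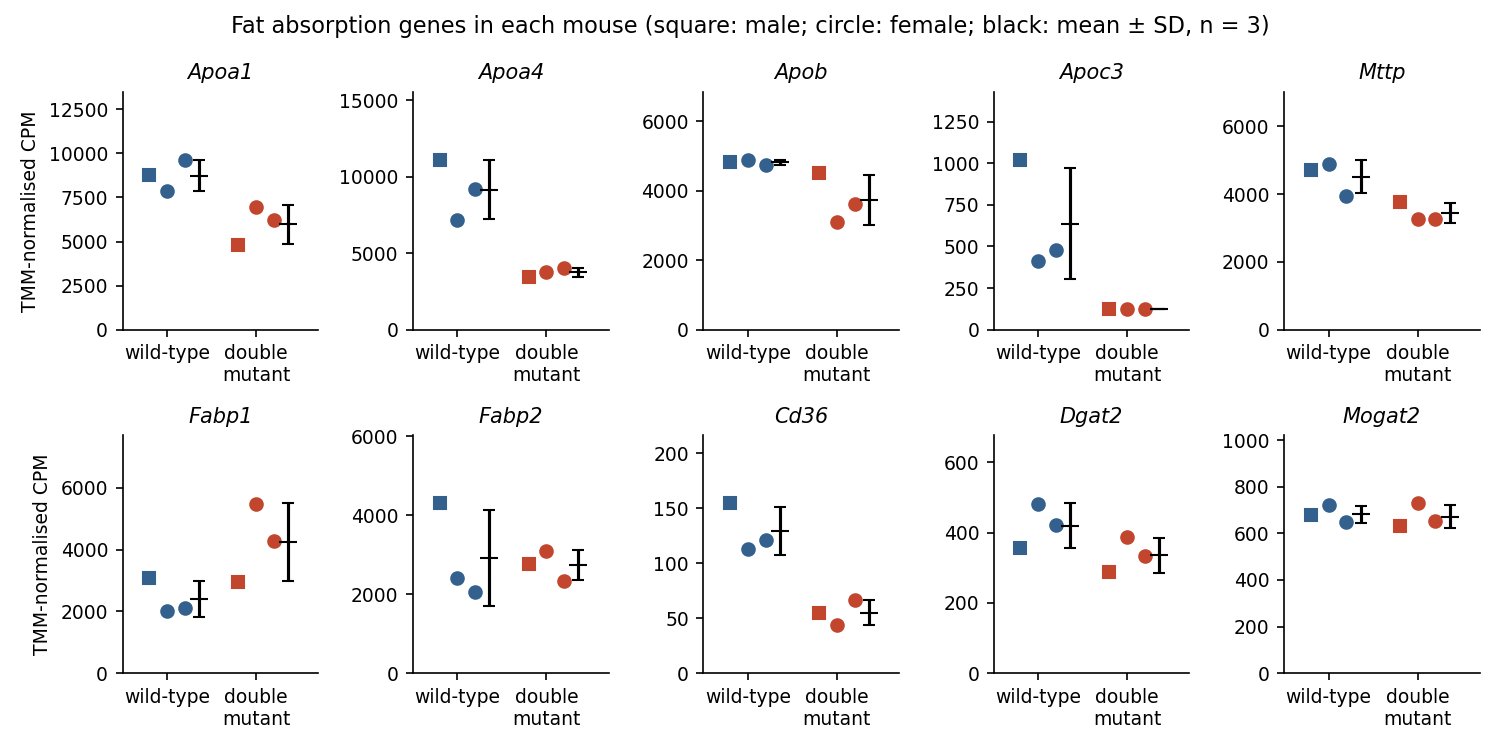
TMM-normalised CPM of each gene (vertical axes, each from 0) in every mouse, with wild-type mice in blue, double mutant mice in red, the male of each group as a square, the females as circles, and the mean ± SD of 3 mice in black. The groups are separate for Apoa1, Apoa4, Apob, Apoc3, Mttp and Cd36, and the square of wild-type mouse 1 lies above the other wild-type mice for Apoc3, at 1020 CPM.

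Apoa1, Apoc3 and Apoa4 lie in 1 cluster on chromosome 9 of mm9. Apoa1 spans 46036663 to 46038549 on the plus strand, Apoc3 46041016 to 46043719 on the minus strand and Apoa4 46048779 to 46051542 on the plus strand. Apoa1 and Apoc3 are 2466 bp apart, and 5059 bp separate Apoc3 from Apoa4. All 3 fell, by unequal amounts. Apoa5, the next gene of the cluster, reached at most 10 counts in any library and was not tested.

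Apoc3 (ENSMUSG00000032081) encodes an inhibitor of lipoprotein lipase that slows the clearance of triglyceride-rich particles. It stood at 1020, 411 and 477 CPM in wild-type mice 1, 2 and 3 and at 125, 124 and 121 CPM in double mutant mice 1, 2 and 3. The double mutant mice were nearly alike, and all lay below every wild-type mouse, among which mouse 1 was more than double either of the others. Its mean fell from 636 ± 334 to 123 ± 1.87 CPM (SD, n = 3), a log2 difference of -2.36 ± 0.348 (SE, edgeR, adjusted p = 0.00266), or 5.15-fold. Without wild-type mouse 1 the log2 fold change was -1.85, and edgeR's adjusted p was 7.0e-06.

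Apoa4 (ENSMUSG00000032080) encodes an apolipoprotein that the intestine secretes on chylomicrons after a fatty meal. Its levels were 11088, 7202 and 9177 CPM in the wild-type mice and 3426, 3759 and 4043 CPM in the double mutant mice, so the highest double mutant value was well below the lowest wild-type value. The mean fell 2.45-fold, from 9156 ± 1943 to 3743 ± 309 CPM (SD, n = 3), with a log2 difference of -1.29 ± 0.173 (SE, edgeR, adjusted p = 0.000937). By mean share of counts it was gene number 3 of the whole table in wild-type villi and number 15 in double mutant villi.

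Apoa1 (ENSMUSG00000032083), the main structural protein of high-density lipoprotein and a component of nascent chylomicrons, was at 8754, 7846 and 9624 CPM in wild-type and 4790, 6958 and 6212 CPM in double mutant villi. The groups did not overlap, and double mutant mouse 2 came nearest to wild-type mouse 2. The log2 difference was -0.55 ± 0.164 (SE, edgeR, adjusted p = 0.0306). That call stood in 3 of 6 fits with 1 mouse omitted and was lost without wild-type mouse 3 (adjusted p = 0.0913, edgeR), without double mutant mouse 1 (0.0876) and without double mutant mouse 3 (0.0816).

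Apob (ENSMUSG00000020609; chromosome 12, 7984454 to 8023641, plus strand) encodes the one scaffold protein that every chylomicron carries. It measured 4820, 4881 and 4748 CPM in the wild-type mice and 4502, 3084 and 3606 CPM in the double mutant mice. Wild-type mice were nearly equal, and each double mutant mouse was lower, by a spread of amounts. The log2 difference of -0.37 ± 0.153 (SE) did not pass (adjusted p = 0.0912, edgeR). It passed without double mutant mouse 1, the nearest to the wild-type mice (adjusted p = 0.0272, edgeR), and by DESeq2 (adjusted p = 0.0420).

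Enterocytes make the short form of apolipoprotein B because the enzyme APOBEC1 deaminates a single C of the Apob transcript, turning a CAA codon into a stop. The site is shown because counts per gene join the edited and unedited transcripts. It lies in exon 26 of 29, at chr12:8014854-8014883 of mm9 on the plus strand, and the codon is number 2179 of 4506 in the annotated coding sequence. The edited C and the first 7 bases of the downstream mooring sequence are in capitals, with 2 bases between the codon and the latter.
Apob editing site: gcgataCaattTGATCAGtatattaaagat
It was the one in-frame CAA of the transcript followed by TGATCAG within 8 bases. Apobec1 itself was at 80.1 ± 11.7 and 68.0 ± 6.66 CPM (SD, n = 3), a log2 fold change of -0.24 that did not pass (adjusted p = 0.215, edgeR). Its cofactor A1cf, named after its values were seen, was at 78.9 ± 3.22 and 57.1 ± 23.8 CPM and did not pass either (adjusted p = 0.206, edgeR). Rbm47, an RNA-binding cofactor of the same editing complex, fell by 0.78 on the log2 scale (standard error 0.152, adjusted p = 0.00484, edgeR). The edited share of Apob was not analysed here.

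**Figure D2:**
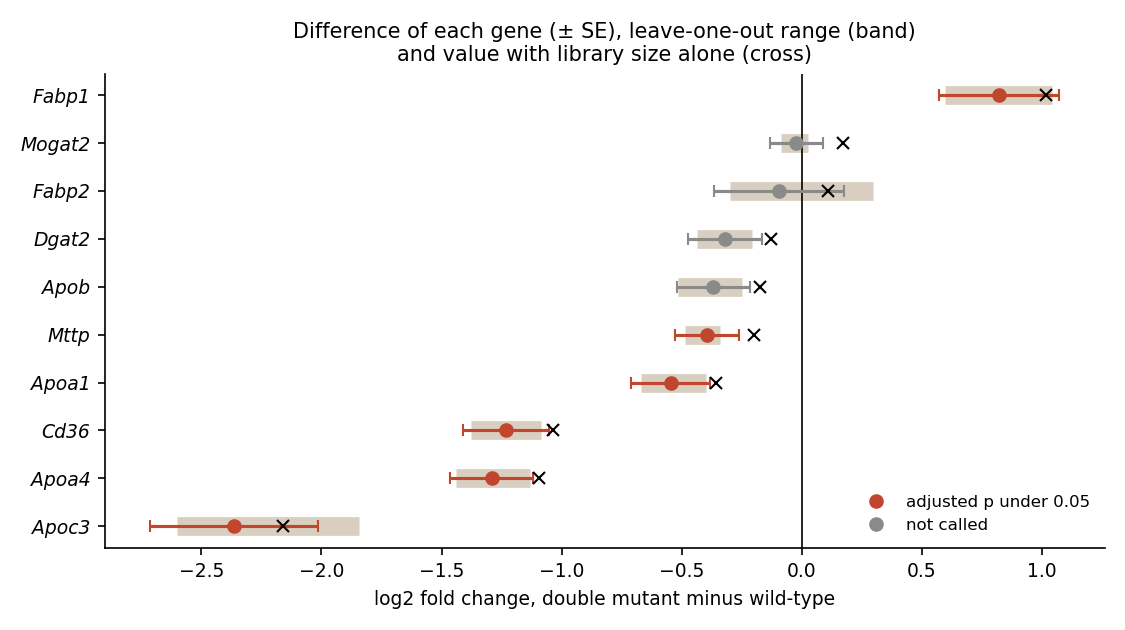
Log2 fold change of each gene, double mutant minus wild-type (horizontal axis), with its standard error, in red where the adjusted p was under 0.05 and in grey where it was not, beside the range over the 6 fits without 1 mouse (band) and the value with library size alone (cross). Apoc3, Apoa4 and Cd36 stay below -1 throughout, Fabp1 stays above 0, and the bands of Fabp2 and Mogat2 span 0.

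Mttp (ENSMUSG00000028158; chromosome 3, 137752819 to 137806352, minus strand) encodes the large subunit of the microsomal triglyceride transfer protein, without which apolipoprotein B is not lipidated. It was at 4724, 4874 and 3958 CPM in wild-type and 3774, 3268 and 3267 CPM in double mutant villi. The groups were separate, with wild-type mouse 3 only slightly above double mutant mouse 1. The log2 difference was -0.40 ± 0.133 (SE, edgeR, adjusted p = 0.0463). This call stood in 2 of the 6 fits without 1 mouse and was lost without wild-type mouse 1 or 2 or double mutant mouse 2 or 3 (adjusted p from 0.0699 to 0.158, edgeR).

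Mogat2 (ENSMUSG00000052396; chromosome 7, 106367594 to 106387129, minus strand) encodes the monoacylglycerol acyltransferase that carries out the first step of intestinal triglyceride synthesis. Its levels were 679, 720 and 648 CPM in the wild-type mice and 633, 729 and 654 CPM in the double mutant mice, and the groups overlapped fully. The log2 fold change was -0.02 with a standard error of 0.111 (adjusted p = 0.891, edgeR), and over the 6 fits without 1 mouse it ran from -0.09 to 0.03.

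Dgat2 (ENSMUSG00000030747; chromosome 7, 106302173 to 106331223, minus strand), a diacylglycerol acyltransferase of the last step, lies 36370 bp from Mogat2. It was at 355, 482 and 421 CPM in wild-type and 288, 387 and 332 CPM in double mutant villi. The male had the lowest value in each group, and the groups overlapped. The log2 difference of -0.32 ± 0.154 (SE) did not pass (adjusted p = 0.138, edgeR), and without wild-type mouse 1 it was -0.43 (adjusted p = 0.0445, edgeR). Dgat1, the other enzyme of that step and no close relative in sequence, fell by 0.59 on the log2 scale, from 1066 ± 64.8 to 707 ± 61.2 CPM (SD, n = 3, adjusted p = 0.00524, edgeR), in every fit without 1 mouse. Mogat1, named after its values were seen, fell from 10.9 ± 2.15 to 0.730 ± 0.604 CPM (adjusted p = 0.00251, edgeR).

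Cd36 (ENSMUSG00000002944; chromosome 5, 17287508 to 17394777, minus strand) was at 154, 113 and 121 CPM in the wild-type mice and 55.1, 44.2 and 66.1 CPM in the double mutant mice. Every double mutant mouse was below every wild-type mouse. The mean fell 2.35-fold, from 129 ± 22.0 to 55.1 ± 11.0 CPM (SD, n = 3), with a log2 difference of -1.23 ± 0.178 (SE, edgeR, adjusted p = 0.00129). It was the least abundant of the 10 genes by CPM and by TPM. Endothelial cells and leukocytes also express Cd36, and Pecam1, an endothelial marker, was at 0.101 to 0.815 CPM in all mice. The summed level of 10 leukocyte markers was 80.3 to 150 CPM in wild-type and 64.8 to 107 CPM in double mutant villi, and 2 of the 7 tested, Ptprc and Cd8a, fell. Their part in the change of Cd36 was not tested.

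Fabp1 (ENSMUSG00000054422; chromosome 6, 71149821 to 71155017, plus strand), the fatty acid carrier that liver and intestine share, was at 3069, 2005 and 2114 CPM in wild-type and 2955, 5477 and 4281 CPM in double mutant villi. Double mutant mice 2 and 3 were above every wild-type mouse, and double mutant mouse 1 was below wild-type mouse 1, so the groups overlapped. The log2 difference was 0.82 ± 0.250 (SE, edgeR, adjusted p = 0.0331). Without wild-type mouse 1 it was 1.04 (adjusted p = 0.00839, edgeR), and the call was lost without wild-type mouse 2, wild-type mouse 3, double mutant mouse 2 or double mutant mouse 3 (adjusted p from 0.0844 to 0.115, edgeR). With sex as a covariate it was 0.82 and not called (adjusted p = 0.0529, edgeR), which left none of the 10 genes called higher and 5 called lower, beside 20.1% and 17.2% of all genes. Double mutant mouse 2, with the highest Fabp1, was also the library with liver transcripts, where Alb stood at 9.55 CPM against 0.142 to 1.12 CPM in the others. In double mutant mouse 3 Alb was at 0.142 CPM. The part of liver transcripts in the difference of Fabp1 was not tested.

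Fabp2 (ENSMUSG00000023057; chromosome 3, 122597990 to 122602424, plus strand) encodes the intestinal form of the carrier. It was at 4298, 2398 and 2056 CPM in wild-type and 2769, 3104 and 2330 CPM in double mutant villi. The double mutant values lay inside the wild-type range, which wild-type mouse 1 widened. The log2 difference was -0.09 ± 0.271 (SE, edgeR, adjusted p = 0.814) and turned to 0.30 without that mouse (adjusted p = 0.158, edgeR). The antisense gene 4933405D12Rik overlaps Fabp2, and since the strand setting of the counting is not given in the sources used here, their reads cannot be told apart. That gene was counted at a mean of 1.66 CPM.

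Of the 10 genes, 6 had groups that did not overlap, as did 52.4% of all tested genes. With library size in place of TMM factors, which moved the median log2 fold change of all genes up by 0.19, 4 of the 10 passed, namely Apoc3, Apoa4 and Cd36 as lower and Fabp1 as higher, against 10.7% and 27.9% of all genes. Without wild-type mouse 1, 5 passed as lower and 1 as higher, against 17.1% and 20.2% of all genes, with Dgat2 in and Mttp out. Without double mutant mouse 3, 3 passed, Apoc3, Apoa4 and Cd36, all lower, against 12.3% of all genes lower and 14.2% higher in that fit.

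Promoters of Apoa4, which fell, and Fabp1, which rose, are shown because each held 1 match to the motifs of transcription factors that act on enterocyte genes. RefSeq start sites of GRCm38.p6, a later build than that of the counts, gave promoters for 7 of the 10 genes, each from 250 bases before to 50 after the start. On both strands, the letters searched were CAAAGTNCA for HNF4, AGGTCANAGGTCA for the DR1 element of PPAR and RXR, GTTAAT for HNF1, AGATAA for GATA factors and CTTTGAT for TCF/LEF. Matches are in capitals, and none overlap.
Apoa4 promoter (chr9:46240594-46240893, plus strand): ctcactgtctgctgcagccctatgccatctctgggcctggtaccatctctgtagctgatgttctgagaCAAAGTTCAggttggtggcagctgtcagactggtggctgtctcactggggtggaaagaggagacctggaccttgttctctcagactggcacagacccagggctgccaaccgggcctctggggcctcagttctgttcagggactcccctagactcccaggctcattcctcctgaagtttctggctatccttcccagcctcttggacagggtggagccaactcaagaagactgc
Fabp1 promoter (chr6:71199629-71199928, plus strand): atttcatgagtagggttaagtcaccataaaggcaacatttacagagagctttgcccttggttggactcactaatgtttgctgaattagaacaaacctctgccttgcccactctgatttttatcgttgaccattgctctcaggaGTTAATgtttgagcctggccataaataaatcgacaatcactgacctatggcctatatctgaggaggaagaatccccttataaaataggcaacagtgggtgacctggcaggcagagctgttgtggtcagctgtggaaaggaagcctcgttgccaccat
The Apoa4 match, CAAAGTTCA, was to HNF4 and began 182 bases before the start, and the Fabp1 match was to HNF1 at 107 bases before it. Fabp2 held an HNF4 match too, on the opposite strand, while Apoa1, Apob, Mttp and Cd36 held none of these letters in this window. Over 32851 promoters, 1.41% held the HNF4 letters, 0.0396% those of DR1, 7.1% those of HNF1, 11.2% those of GATA factors and 3.73% those of TCF/LEF.

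Levels per length were compared as TPM, counts divided by the length of all exons of a gene and scaled to a fixed sum per library. In wild-type villi the order was Apoa1 at 15148 ± 2616 TPM, Apoa4 at 10816 ± 2715, Fabp1 at 9254 ± 2430, Fabp2 at 6437 ± 2705, Mttp at 2174 ± 127, Apoc3 at 1342 ± 719, Mogat2 at 791 ± 16.0, Apob at 736 ± 43.4, Dgat2 at 395 ± 49.4 and Cd36 at 70.4 ± 13.9 TPM (SD, n = 3). The ranges of neighbours overlapped from Apoa1 down to Fabp2 and from Mttp down to Apob. In double mutant villi Fabp1 came first, at 16682 ± 4796 TPM, with a range that overlapped that of Apoa1 at 10556 ± 1910 TPM. Below these, each gene was separate from the next: Fabp2 at 6161 ± 704 TPM, Apoa4 at 4500 ± 473, Mttp at 1698 ± 140, Mogat2 at 798 ± 49.3, Apob at 584 ± 114, Dgat2 at 325 ± 45.0, Apoc3 at 265 ± 4.16 and Cd36 at 30.7 ± 6.99 TPM. Apoc3 thus moved from place 6 to place 9, although with the length of the longest transcript it stayed above Dgat2, at 339 against 290 TPM.

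**Figure D3:**
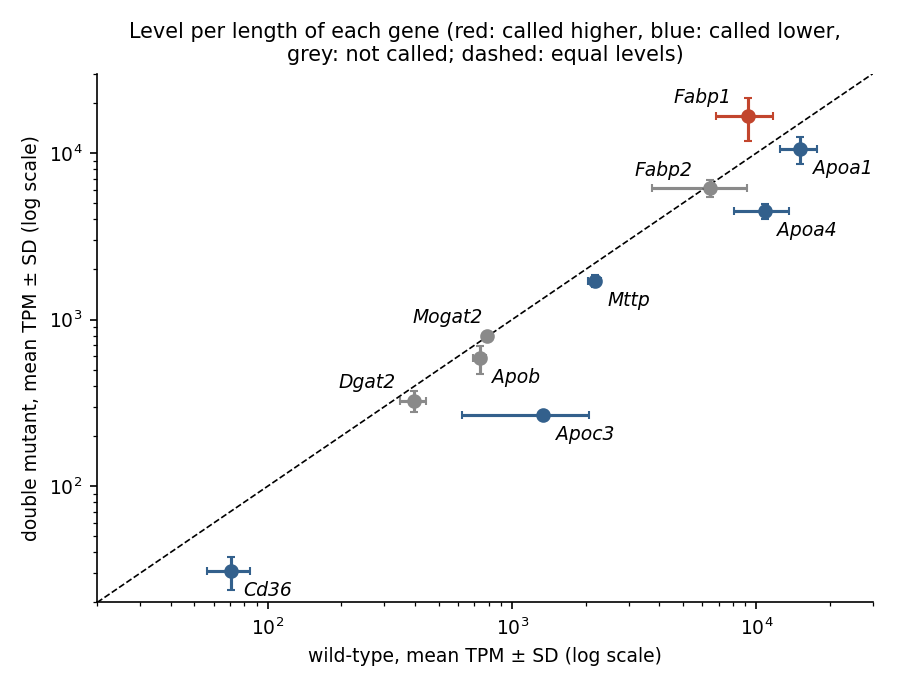
Mean TPM ± SD (n = 3 mice) of each gene in wild-type (horizontal) and double mutant villi (vertical), both on log axes, with the line of equal levels dashed, genes called lower in blue, higher in red and not called in grey. Apoc3 lies farthest below the line, at 1342 against 265 TPM, Fabp1 lies above it, and Fabp2 and Mogat2 lie on it.

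Together the 10 genes took 3.55%, 2.89% and 3.20% of all counts in wild-type mice 1, 2 and 3 and 2.53%, 2.85% and 2.65% in the double mutant mice, with no overlap of the groups. The means were 3.21% ± 0.334 and 2.68% ± 0.164 (SD, n = 3), a difference of -0.54 percentage points. The largest part was that of Apoa4, whose share fell by 0.455 points, while the share of Fabp1 was 0.229 points higher. The 20 most abundant other genes took 12.1% ± 0.399 and 13.9% ± 0.441 of counts.

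Ratios of 2 genes within a library do not depend on scaling between libraries. An exact two-sided permutation test of 3 mice against 3 cannot go below p = 0.1, so none of the 6 ratios could pass. Fabp1 to Fabp2 was 0.714, 0.836 and 1.03 in wild-type mice and 1.07, 1.76 and 1.84 in double mutant mice, with no overlap but a small gap between wild-type mouse 3 and double mutant mouse 1 (exact permutation p = 0.1, adjusted over the 6 ratios 0.2). Apoa4 to Apoa1 was 1.27, 0.918 and 0.954 in wild-type mice and 0.715, 0.540 and 0.651 in double mutant mice (exact p = 0.1, adjusted 0.2). Apoa1 to Apoc3 went from 8.59, 19.1 and 20.2 to 38.4, 55.9 and 51.2 (exact p = 0.1, adjusted 0.2), again with no overlap. In the remaining 3 ratios the groups overlapped. Apob to Mttp differed least, at 1.02, 1.00 and 1.20 against 1.19, 0.944 and 1.10 (exact p = 1), and Dgat2 to Dgat1 and Dgat2 to Mogat2 had exact p = 0.3 and 0.2, or 0.36 and 0.3 adjusted.

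**Figure D4:**
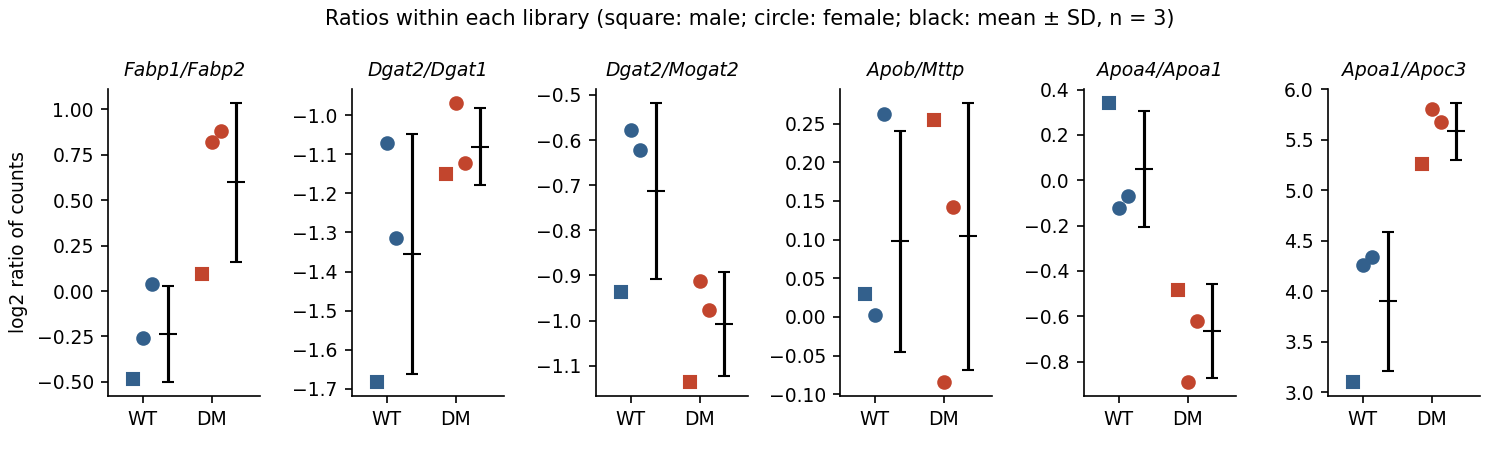
Log2 ratio of the raw counts of 2 genes in each library (vertical axes, each with its own range), for wild-type mice (WT, blue) and double mutant mice (DM, red), the male as a square and the mean ± SD of 3 mice in black. Fabp1/Fabp2, Apoa4/Apoa1 and Apoa1/Apoc3 are separate between the groups, and Apob/Mttp is not.

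Each group held 1 male and 2 females, so a difference between sexes rests on wild-type mouse 1 and double mutant mouse 1 alone and could not be tested as an effect of sex. A term for sex by genotype, whose spread came from the females only, had an adjusted p under 0.05 for 2 of the 10 genes (edgeR), beside 2.64% of all genes. For Apoc3 the log2 difference was -3.03 between the males and -1.85 between the females, and for Fabp1 it was -0.05 and 1.23. Wild-type mouse 1 is also the library with few goblet and Paneth transcripts, so sex and that library cannot be told apart.

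The wider pathway was read from 7 lists of 110 other genes, of which 107 had a row and 95 were tested. In all, 42 were lower and 12 higher, beside 17.0% and 19.7% of all genes, with a median log2 fold change of -0.31 against 0.02 over all genes. With library size alone, 27 were lower and 18 higher, beside 10.7% and 27.9% of all genes.

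Of 12 genes of fatty acid uptake and activation tested, 6 were lower and 1 higher, beside 17.0% and 19.7% of all genes. Their median log2 fold change was -0.75. Acsf2, an acyl-CoA synthetase of mitochondria, fell from 423 ± 123 to 47.4 ± 5.40 CPM (SD, n = 3), a log2 difference of -3.16 (edgeR, adjusted p = 7.31e-05). Slc27a2, a fatty acid transport protein with acyl-CoA synthetase activity, fell by 1.97 on the log2 scale (adjusted p = 0.000145, edgeR). The most abundant transporter, Slc27a4, named after its values were seen, fell from 1431 ± 165 to 442 ± 64.6 CPM (adjusted p = 0.000174, edgeR). Acsl4, a synthetase that prefers arachidonate, rose from 4.15 ± 0.605 to 6.84 ± 0.146 CPM (adjusted p = 0.0241, edgeR), a call that was lost without wild-type mouse 2 or any 1 double mutant mouse (adjusted p from 0.0507 to 0.0772, edgeR). Without double mutant mouse 3, 4 genes of this list were called, all lower, where 12.3% of all genes were lower. None of the 5 lipid-binding carriers tested was called by edgeR (the retinol carrier Rbp2 was at 4429 ± 992 and 5317 ± 556 CPM), none had an unadjusted p under 0.05 and none was called by DESeq2 or limma-voom, but Dbi was higher with library size alone (adjusted p = 0.0469, edgeR) and Rbp2 without wild-type mouse 1 (adjusted p = 0.0300, edgeR), both genes named after their values were seen.

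Of 17 genes of triglyceride and phospholipid synthesis tested, 7 were lower and 4 higher, beside 17.0% and 19.7% of all genes. Pcyt1a, the rate-limiting enzyme of phosphatidylcholine synthesis, which also supplies the chylomicron coat, fell from 617 ± 30.5 to 220 ± 27.6 CPM (adjusted p = 0.000145, edgeR). Lpin2, a phosphatidate phosphatase, fell by 1.87 on the log2 scale (adjusted p = 0.000496, edgeR). Agpat5 rose by 1.07 and Agpat4 by 1.84 (adjusted p = 0.000945 and 0.00630, edgeR), both acyltransferases of the glycerol phosphate route, at 19.4 ± 1.07 and 3.03 ± 0.516 CPM in double mutant villi. Of the 5 other apolipoprotein and editing genes tested, Rbm47 alone was lower by edgeR and none was higher, beside 17.0% and 19.7% of all genes. None was higher at an unadjusted p under 0.05 either, nor by DESeq2 or limma-voom. Without double mutant mouse 1, 2 were lower, where 14.7% of all genes were lower and 15.9% higher.

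Of 22 genes of chylomicron assembly and export tested, 10 were lower and none higher by edgeR, beside 17.0% and 19.7% of all genes. Their median log2 fold change was -0.31. No gene of this list was higher at an unadjusted p under 0.05 either, nor by DESeq2 or limma-voom. Sec24d and Sec23a, subunits of the COPII coat that buds transport vesicles from the endoplasmic reticulum, fell by 0.74 and 0.64 on the log2 scale (adjusted p = 0.00313 and 0.00880, edgeR). Sar1b, the small GTPase of that coat whose loss causes chylomicron retention disease, was at 255 ± 53.8 and 187 ± 4.99 CPM, a log2 difference of -0.45 (edgeR, adjusted p = 0.0429) that was lost without wild-type mouse 1 or any 1 double mutant mouse (adjusted p from 0.0882 to 0.128, edgeR). With library size alone 3 genes of this list were lower and 1 higher, where the shares of all genes were 10.7% and 27.9%. Without double mutant mouse 2, 5 were lower and none higher, beside 11.9% and 13.2% of all genes, and without double mutant mouse 3, 4 were lower and none higher, beside 12.3% and 14.2%.

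Of 13 genes of lipid droplet storage and lipolysis tested, 6 were lower and 3 higher, beside 17.0% and 19.7% of all genes. Lipe, the hormone-sensitive lipase, fell from 152 ± 19.1 to 58.6 ± 6.81 CPM and Cidec, a droplet fusion protein, from 173 ± 28.5 to 75.6 ± 10.2 CPM (adjusted p = 0.000281 and 0.000781, edgeR). Plin2, the general coat protein of cytosolic droplets, moved the other way, from 75.9 ± 6.55 to 158 ± 7.11 CPM (1.06 on the log2 scale, edgeR, adjusted p = 0.000324). Bscl2, which encodes seipin, a protein of droplet formation, rose by 0.50 (adjusted p = 0.0127, edgeR) and just missed without wild-type or double mutant mouse 3 (adjusted p = 0.0519 and 0.0546, edgeR).

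Of 21 transcription factors of lipid absorption tested, 12 were lower and 4 higher, beside 17.0% and 19.7% of all genes. With library size alone, 6 were lower and 4 higher, beside 10.7% and 27.9% of all genes. Klf4 fell from 597 ± 17.4 to 103 ± 13.5 CPM (adjusted p = 1.56e-05, edgeR) and is also a villus tip marker. Maf, a factor of mature enterocytes, fell from 657 ± 113 to 183 ± 35.9 CPM (adjusted p = 0.000286, edgeR). Hnf4a, whose product acts on many enterocyte genes, fell from 961 ± 60.1 to 735 ± 43.8 CPM, a log2 difference of -0.39 (edgeR, adjusted p = 0.0256) that was lost without wild-type mouse 2 or 3 or double mutant mouse 1 or 3 (adjusted p from 0.0533 to 0.0969, edgeR). Ppara, the fatty acid sensor for which Fabp1, Cd36 and Plin2 are known targets, rose from 10.6 ± 1.35 to 21.9 ± 6.62 CPM (1.05 on the log2 scale, edgeR, adjusted p = 0.00714). Creb3l3, a membrane-bound factor that acts on Apoa4, was at 698 ± 26.0 and 695 ± 73.0 CPM (log2 fold change -0.01, standard error 0.117, adjusted p = 0.977, edgeR). Nr1h4, the bile acid receptor, and Nr5a2 rose by 0.60 and 0.90 (adjusted p = 0.00458 and 0.00530, edgeR).

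**Figure D5:**
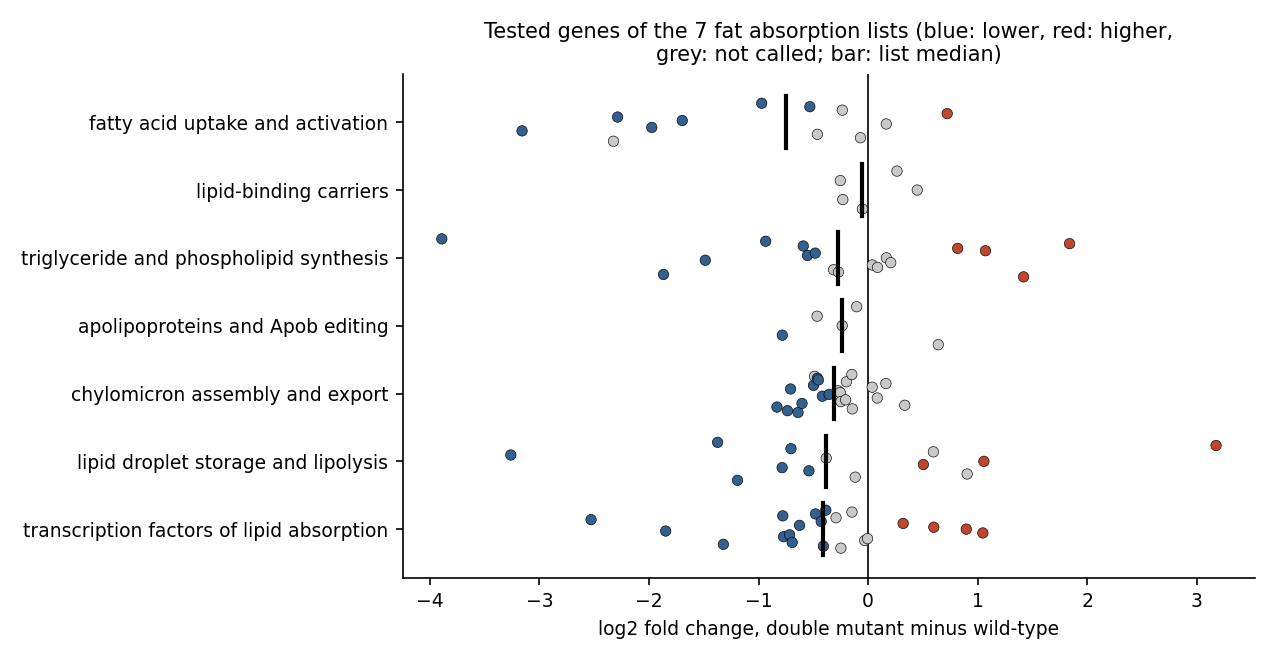
Log2 fold change, double mutant minus wild-type (horizontal axis), of each tested gene in the 7 lists (rows), in blue where called lower, red where called higher and grey where not called, with a black bar at the list median (vertical position within a row has no meaning). The medians run from -0.75 for uptake and activation to -0.05 for the carriers.

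Patterns over the 6 libraries were compared with 7854 other genes of at least 10 CPM. The gene most like Apoc3 was Hist1h2bc (Pearson r = 0.999, n = 6 libraries), the gene most like Apoa4 was Apol9b (r = 0.999) and that most like Cd36 was Clec2e (r = 0.998). Fabp1 was most like Hint2 (r = 0.997), Apoa1 most like Fbxl15 (r = 0.996), Apob most like Rabgap1l (r = 0.998) and Mttp most like Gpbp1 (r = 0.995). Weaker matches were found for Fabp2 with Ddx50 (r = 0.982), Dgat2 with Slc16a3 (r = 0.977) and Mogat2 with Ap2m1 (r = 0.970). Both genes of a pair share the group difference and the libraries, so these values only describe. Within the set, Apoa4 and Apoc3 were most alike (r = 0.982), and Apob and Fabp1 most opposed (r = -0.921).

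Neighbouring genes were read at 2 loci, the Apoa1 cluster and that of Dgat2 and Mogat2, within 50000 bp. Next to Apoa1, Sik3 was at 34.7 and 30.7 CPM (-0.18 on the log2 scale, edgeR, adjusted p = 0.331), and on the far side of Apoa5, Zfp259 rose by 0.62 (adjusted p = 0.0232, edgeR) and Bud13 did not pass (0.14, adjusted p = 0.630, edgeR). Uvrag, the neighbour of Dgat2, was at 14.8 and 15.6 CPM and did not pass (adjusted p = 0.742, edgeR).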

How the data were processed

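The authors mapped 150 bp paired-end reads onto mm9 (HISAT2) and summed them over genes (featureCounts). They deposited the raw count of each gene in each mouse, neither normalised nor pooled. The strand setting and the treatment of multiply mapped reads are not given in the sources used here. Symbols and coordinates came from the GENCODE annotation of mm9, which held 20032 of 20073 Ensembl identifiers. The 336 numbered transcripts outside it took at most 0.270% of a library. Samples were grouped by their titles.

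From the counts onward, R 4.3.3 and edgeR 4.0.16 were used, with filterByExpr by group, TMM factors, glmQLFit (robust) and glmQLFTest, and Benjamini-Hochberg adjustment over 13346 genes. The SE of a log2 difference was taken as its size over the root of the F statistic. Alternatives used DESeq2 1.42.0, limma 3.58.1 (voom), other scalings and filters, sex as a covariate, a replicate block and each mouse left out. The test was checked on simulated counts first. The depth of 19678507 to 26337318 counts per mouse puts the floor of 3 counts at 0.114 to 0.152 CPM. Replicates are separate mice. The members and lists were chosen with earlier results of these data known. Named list genes were up to 2 per list and direction with the smallest adjusted p, plus Dgat1, Sar1b, Apobec1, Hnf4a, Ppara and Creb3l3, and others are marked in the text as named after their values were seen. Of the pathway and marker genes, 5 were matched by a RefSeq synonym. For likeness, CPM were put on the log2 scale after adding a prior count of 2. Marker lists covered enterocyte, villus tip, stem and transit-amplifying, goblet, Paneth, enteroendocrine, tuft, leukocyte, stroma and vessel, exocrine pancreas, liver and adipocyte. List genes with no row were not analysed here.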

Additional observations from a re-analysis of the deposited data

Results flagged for a closer look

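The log2 difference between genotypes was not the same in the 1 male and the 2 females of each group for Apoc3 and Fabp1, by edgeR's interaction term. For Apoc3 the term was -1.18 on the log2 scale (adjusted p = 0.0269, edgeR; 0.000141, DESeq2; 0.0417, limma-voom). For Fabp1 it was -1.30 (adjusted p = 0.0387, edgeR; 5.47e-05, DESeq2; 0.0530, limma-voom). Each male arm is a single mouse, and the spread in this fit came from the females only, so these values compare single libraries and do not test an effect of sex. Wild-type mouse 1, at 1020 CPM of Apoc3 against 411 and 477 CPM in the other wild-type mice, is also the library with few goblet and Paneth transcripts.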

How the results depend on the processing

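Over 16 alternative fits, Apoa4, Apoc3 and Cd36 kept direction and call in all, Apoa1 in 11, Fabp1 in 10 and Mttp in 9. Apob passed in 2 and Dgat2 in 1. With sex as a covariate Fabp1, the 1 gene called higher, was not called (adjusted p = 0.0529, edgeR), and the other 5 calls stood. Of the 10 genes, 6 were called, beside 36.8% of all genes; leaving out 1 mouse gave 3 (double mutant mouse 3, 26.5% of all genes) to 6, beside 25.1% to 37.4% of all genes over these fits. An absolute log2 fold change of at least 1 gave 3 and of at least 2 gave 1, beside 17.1% and 5.3% of all genes. Of the pathway genes 54 were called; leaving out 1 mouse gave 37 to 50, and the fold thresholds of 1 and 2 gave 19 and 6. The fall in the share of counts ran from -0.70 to -0.37 points. Fabp2 turned to 0.11 with library size alone, 0.30 without wild-type mouse 1 and 0.013 without double mutant mouse 3 (-0.30 to 0.30 over the 6 fits without 1 mouse). Mogat2 turned to 0.17 with library size alone and to 0.016, 0.028 and 0.00082 without wild-type mouse 2, double mutant mouse 1 and double mutant mouse 3 (-0.086 to 0.028 over the 6 fits). The cause of these turns was not tested. The sex by genotype term compares single libraries, with 1 male per group. The number of the 10 genes under its threshold was not the same by edgeR, DESeq2 and limma-voom. Only for edgeR was the share of all genes taken. For this term, limma-voom and DESeq2 were added after the data were seen, as were the counts list by list.

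Deviations from the group mean over 13346 genes had r = 0.02, -0.11 and 0.01 for same-numbered mice. Differently numbered mice ranged from -0.10 to 0.09. Deviations from a mean of 3 mice are bound to cancel within each gene, so these values cannot show whether the mice were paired. With the replicate block, 3 of the 10 genes and 44 of the pathway genes were called, beside 28.8% of all genes. Depth limits only genes near 3 counts, which none of the 10 approached.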
